A study of Arabidopsis thaliana with 8 samples.

Results

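Whole Arabidopsis thaliana seedlings that lack both CURLY LEAF and SWINGER (the clf-28 swn-7 double mutant) were compared with seedlings that lack only SWINGER (swn-7), which shows what loss of CLF adds when SWN is already missing. The comparison used 4 of the 8 arrays of the study, chosen by genotype from the labels: 2 arrays of clf-28 swn-7, grown for 12 days, and 2 of swn-7, grown for 10 days. The other 4 arrays, 2 of wild type (Columbia, Col-0) and 2 of clf-28, all grown for 10 days, gave the loss of CLF with SWN present. Both mutations are T-DNA insertions, and each single mutant is 1 insertion line, so every change is that of 1 allele of each gene. Seedlings were bulked, kept cold as seed for 3 days, and grown in tissue culture on nutrient agar, and all are labelled growth stage 1.03. The double mutant was 2 days older than swn-7, so age and the loss of CLF cannot be told apart in any comparison of these genotypes. The annotation used here names no probe set for either mutated gene, so the labels were not checked against CLF and SWN.

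CLF and SWN are related catalytic subunits of the Polycomb repressive complex PRC2, which places methyl groups on a lysine of histone H3 and so keeps genes silent through cell divisions. In plants PRC2 is known for silencing floral and flowering-time genes in leaves and for closing down the seed programme after germination. Seedlings of plants without both enzymes are known to lose leaf identity and to form callus-like tissue that can bear embryo-like structures.

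RNA was hybridised to Affymetrix ATH1 arrays, which give 1 signal per probe set in arbitrary units, and the 2% trimmed mean of the deposited signals was 100 on each array. Signals under 10 were set to a floor of 10 and log2 was taken, and the 17332 of 22746 probe sets that exceeded the floor on 2 or more arrays were tested with limma. Between 69.1% and 71.6% of probe sets lay above the floor on each array. Along the first principal component, with 78.3% of the variance, the double mutant arrays lay at 135 and 122 and the other 6 arrays between -47.4 and -39.8. The 2 double mutant arrays correlated with r = 0.974 across probe sets and the 2 swn-7 arrays with r = 0.975. The swn-7 replicate 2 array stood apart in its plastid-encoded transcripts, which are described with and without it. The labels do not say whether replicate arrays stem from separate cultures, so the p-values reflect only how these samples vary, and that variation may be technical.

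The double mutant differed from swn-7 in a large share of the transcripts measured. At a limma adjusted p under 0.05, 7869 of 17332 probe sets (45.4%) differed between the double mutant and swn-7, of which 4302 (24.8%) were higher and 3567 (20.6%) lower. The number higher was 2793 when the first double mutant array was left out. Of the calls, 61.7% were at least 2-fold, with 2363 higher (13.6%) and 2492 lower (14.4%). At 8-fold or more there were 353 higher (2.04%) and 362 lower (2.09%), and 193 of those 353 were at the floor in both swn-7 arrays. Of the 362 large falls, 55 were at the floor in both double mutant arrays. Without a test, the 2 double mutant arrays lay above both swn-7 arrays for 42.4% of probe sets and below both for 31.5%. Most calls also set the double mutant apart from wild type and clf-28, although the choice by swn-7 fixes part of this: 92.6% of the higher probe sets lay above all 6 other arrays, against 32.5% of all tested, and 93.9% of the lower ones lay below all 6, against 24.8%. The median log2 change over all tested probe sets was 0.13, and 0.02 after the arrays were scaled to equal medians, which turned the counts to 3545 higher and 4012 lower.

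The 12 largest named rises included transcripts of LEA proteins, storage and oil body proteins, and several enzymes. Of these 12 genes, 10 were at the floor in both swn-7 arrays, and all 12 lay far above it in the double mutant. For 6 of them (LEA18, BGLU19, AtLEA4-1, LEA, LCR67 and ATOEP16-2) fewer than 2 arrays outside the double mutant exceeded the floor, so they entered the test only through the genotype in which they were high. For LEA18, a late embryogenesis abundant (LEA) protein of the kind made in drying seeds, the swn-7 arrays gave signals of 0.860 and 0.747 and the double mutant arrays 4502 and 4994. Its rise was at least 474-fold (log2 change 8.89, SE 0.18, limma adjusted p = 6.95e-07), and no other array exceeded 5.10. Where a genotype has an array at the floor, as here, the fold is a lower bound, and in bulk seedlings fewer cells of a type and less RNA per cell cannot be told apart.

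Storage reserve genes behaved alike. PAP85, a vicilin-like seed storage protein, gave 0.465 and 9.40 in swn-7 and 4552 and 3518 in the double mutant. Its rise was at least 400-fold (log2 change 8.64, SE 0.46, limma adjusted p = 1.01e-05), and both double mutant arrays lay far above the highest of the other 6 arrays, at 57.9. OLEO3, an oleosin that coats seed oil bodies, read 8.99 and 9.42 in swn-7 against 2146 and 2080, a rise of at least 211-fold (log2 change 7.72, SE 0.29, limma adjusted p = 2.70e-06). BETA-VPE, a vacuolar protease that processes seed storage proteins, was measured above the floor in swn-7, at 52.9 and 28.6, and reached 2783 and 2519. That rise of 68.1-fold (log2 change 6.09, SE 0.29, limma adjusted p = 6.53e-06) is therefore not a bound. All 3 measured members of the 18-gene list for seed storage and oil bodies rose, against 24.8% of all probe sets, and their median log2 change was 7.72, against 0.13. The summed signal of the 3 genes was 47.4 to 62.4 in swn-7, 64.9 to 143 in wild type and clf-28, and 8116 to 9481 in the double mutant. These sums include signals under the floor, and BETA-VPE alone made up most of the swn-7 sum.

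Further LEA genes rose from the floor to high signals. LEA4-5 went from 5.13 and 6.81 in swn-7 to 2422 and 3150, and AtLEA4-1 from 3.62 and 3.78 to 2860 and 2518, rises of at least 276-fold and 268-fold. M17 went from 0.094 and 1.42 to 2660 and 2370, at least 251-fold, and the dehydrin gene LEA from 0.208 and 1.13 to 2235 and 1731, at least 197-fold. In each of these 4 genes the highest signal of the 6 other arrays was under every double mutant signal. The exception among the 4 measured members of the LEA list was COR47, a dehydrin known from cold and drought responses. COR47 fell from 1281 and 1777 in swn-7 to 105 and 150 in the double mutant (12.1-fold, log2 change -3.59, SE 0.29, limma adjusted p = 7.58e-05), so the list held 3 rises and 1 fall. Since LEA18 and AtLEA4-1 entered the test only through the double mutant, this count supports nothing by itself.

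The other genes among the 12 largest named rises included enzymes and small proteins. ICL, isocitrate lyase of the glyoxylate cycle, which turns seed oil into sugar after germination, had signals of 1.62 and 22.8 in swn-7 and 4612 and 4485 in the double mutant (at least 301-fold, log2 change 8.24, SE 0.37, limma adjusted p = 5.39e-06). Because 1 swn-7 array was at the floor and the other was not, its log2 change was 7.64 without the first and 8.83 without the second. The 2 other measured genes of storage lipid breakdown did not pass the test: the change on the log2 scale was 0.32 (SE 0.14, limma adjusted p = 0.112) for SDP1, the lipase of oil bodies, and 0.28 (SE 0.22, limma adjusted p = 0.325) for AIM1, of peroxisomal beta-oxidation. BGLU19, a beta-glucosidase, moved from 3.80 and 9.55 to 4127 and 3120, at least 359-fold. LCR67, a plant defensin, read 0.518 and 0.306 in swn-7 against 1431 and 2070, at least 172-fold. ATOEP16-2, the seed form of a plastid outer envelope channel, read 1.09 and 0.698 against 1820 and 1594, at least 170-fold. For these last 3 genes every double mutant signal was over 100 times the floor and every swn-7 signal under it.

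Single genes listed as embryo, seed coat and callus markers were also higher, and few could be tested. EEL, a bZIP factor of late embryogenesis, rose from 14.0 and 17.2 in swn-7 to 405 and 351 (24.4-fold, log2 change 4.61, SE 0.28, limma adjusted p = 2.00e-05). BBM (BABY BOOM), an AP2 factor that promotes embryo formation when overexpressed, rose from 0.660 and 0.260 to 66.8 and 54.6, at least 6.04-fold (log2 change 2.59, SE 0.16, limma adjusted p = 2.34e-05). These were the 2 genes of 13 listed embryo and maturation regulators that are named on the array, and the double mutant lay above all 6 other arrays in both. BBM entered the test only through the double mutant arrays. DELTA-VPE, the vacuolar protease of the developing seed coat, rose from 0.265 and 2.63 to 450 and 839 (at least 61.4-fold, log2 change 5.94, SE 0.32, limma adjusted p = 1.08e-05). Of 11 endosperm and seed coat markers 3 are named on the array, and IKU2 and AT3G50990 lay under the floor on all 8 arrays, at up to 8.44 and 7.92. LBD16, which acts in lateral root and callus formation, rose from 6.95 and 16.6 to 284 and 242 (at least 20.3-fold, log2 change 4.34, SE 0.34, limma adjusted p = 5.85e-05). The other of the 2 callus markers named on the array, of 12 listed, was LBD29, under the floor on all 8 arrays at up to 7.46. The part of tissue makeup in the seed and embryo changes was not tested.

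The largest falls included the photosynthetic apparatus. LHCB4.2, an antenna protein of photosystem II, had signals of 4482 and 3037 in swn-7 and 80.9 and 119 in the double mutant (37.6-fold lower, log2 change -5.23, SE 0.25, limma adjusted p = 7.02e-06). PSAN, a subunit of photosystem I, dropped from 3158 and 2394 to 113 and 192 (18.7-fold, log2 change -4.22, SE 0.26, limma adjusted p = 2.14e-05). In both genes the lowest of the other 6 arrays was more than 9 times the highest double mutant signal. All 6 measured members of the 28-gene list for light harvesting and photosystems fell, against 20.6% of all probe sets, with a median log2 change of -3.94. The remaining 4 were LHCB4.1 (log2 change -3.98), the photosystem II proteins PSBY (-3.89) and PSBW (-2.57), and the photosystem I subunit PSAE-1 (-3.84). This list too was chosen with earlier results of these data known, so the count supports nothing by itself. The summed signal of the 6 genes was 17322 to 23788 in swn-7, 16987 to 22136 in wild type and clf-28, and 1106 to 1819 in the double mutant.

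Carbon fixation and chlorophyll synthesis fell with the photosystems. PRK, phosphoribulokinase of the Calvin cycle, had signals of 2337 and 2104 in swn-7 and 107 and 192 in the double mutant (15.5-fold, log2 change -3.95, SE 0.26, limma adjusted p = 2.93e-05). RCA, rubisco activase, went from 5214 and 3701 to 305 and 490 (11.4-fold, log2 change -3.51, SE 0.29, limma adjusted p = 7.66e-05). With SBPASE, another Calvin cycle enzyme (11.6-fold), and HPR, the hydroxypyruvate reductase of photorespiration (7.67-fold), all 4 measured genes of 18 fell, against the same 20.6%, with a median log2 change of -3.52. The 4 measured genes of 15 for chlorophyll synthesis fell too (20.6% of all probe sets), by a smaller median of -2.23 on the log2 scale. Both lists were chosen with earlier results of these data known, so these counts support nothing by themselves. In order of the chlorophyll pathway, the falls were 1.95-fold for GSA1, 3.70-fold for HEMB1, 5.97-fold for CHLM and 9.03-fold for PORB. PORB reduces protochlorophyllide in the light. The GSA1 call (SE 0.26 on the log2 scale, limma adjusted p = 0.0185) was lost when all probe sets were tested without a filter (0.0663) and when either double mutant array (0.163 and 0.0764) or the first swn-7 array was left out.

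Nuclear genes of plastid membrane complexes and transport were among the largest falls. NdhL and NdhN, subunits of the chloroplast NDH complex that cycles electrons around photosystem I, fell 28.02-fold (483 and 369 to 12.7 and 17.8) and 16.8-fold (303 and 269 to 13.8 and 20.8). Another nuclear subunit, NdhS, picked after its values were seen, fell 6.49-fold. LrgB, a plastid glycolate and glycerate transporter of photorespiration, fell from 648 and 483 to 9.44 and 17.2, at least 42.7-fold (log2 change -5.42, SE 0.26, limma adjusted p = 7.06e-06). In each of these 4 genes both double mutant arrays lay below all 6 others.

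**Figure D1:**
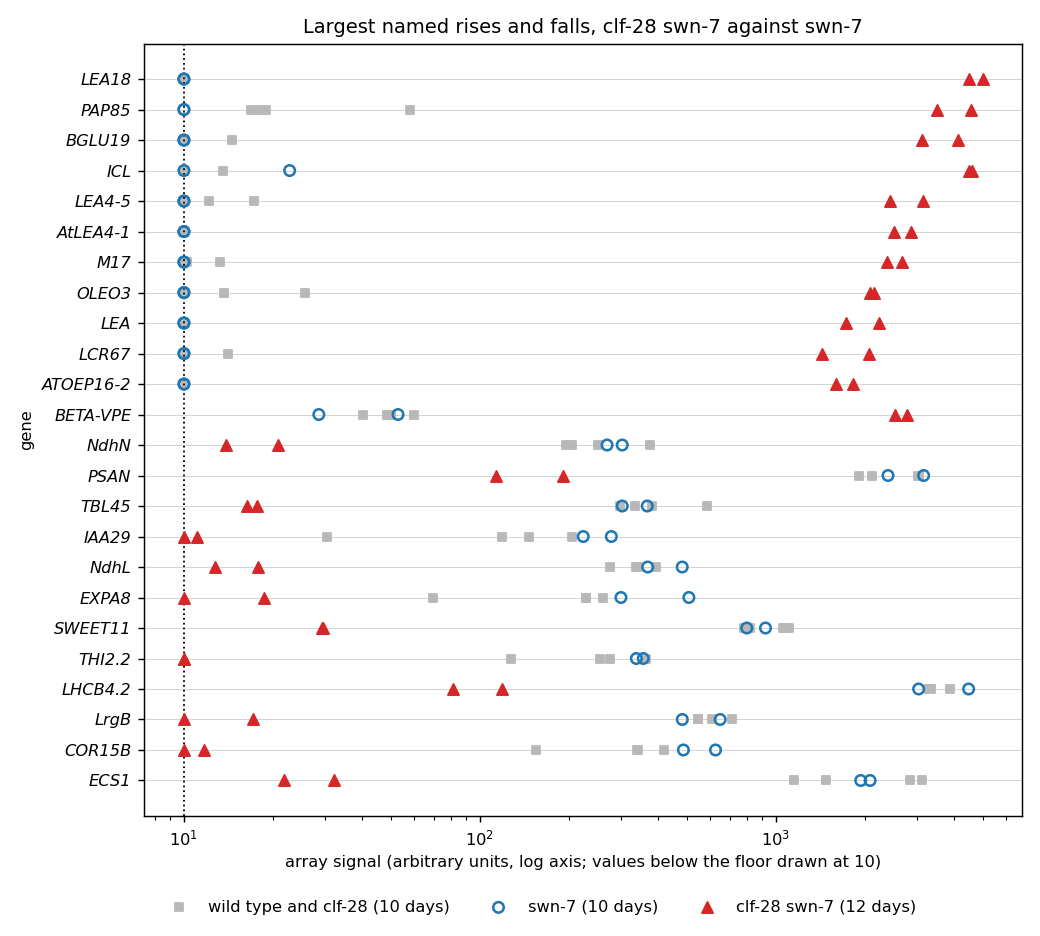
Array signal (arbitrary units, log axis, values under the floor drawn at 10) of the 12 largest named rises and 12 largest named falls, with 1 marker per array for clf-28 swn-7 (triangles), swn-7 (open circles), and wild type and clf-28 (grey squares). In all 24 genes the 2 double mutant arrays lie on one side of all 6 other arrays.

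The remaining large falls came from cold response, defence, sugar transport, cell wall and auxin response. COR15B, a cold-regulated chloroplast protein, fell from 626 and 487 to 11.7 and 5.87 (at least 51.1-fold, log2 change -5.67, SE 0.35, limma adjusted p = 1.95e-05). Its relative COR15A fell 6.97-fold (575 and 422 to 47.0 and 106), with a log2 change of -2.21 without the first double mutant array and -3.39 without the second. These were the 2 measured genes of a 14-gene cold and abscisic acid list, and in both the double mutant lay below the other 6 arrays. SWEET11, a sucrose exporter of leaf phloem, fell 29.3-fold (923 and 798 to 29.2 and 29.4, log2 change -4.87, SE 0.13, limma adjusted p = 7.16e-07). EXPA8, an expansin that loosens cell walls, fell at least 28.5-fold (508 and 300 to 18.7 and 9.71, log2 change -4.83, SE 0.56, limma adjusted p = 4.11e-04). IAA29, a repressor of auxin response, fell at least 23.7-fold (278 and 223 to 11.1 and 0.801, log2 change -4.56, SE 0.74, limma adjusted p = 0.00206). The wild-type arrays differed widely for both genes, at 30.3 and 205 for IAA29 and 69.2 and 229 for EXPA8. TBL45, of a family known for acetylating wall polysaccharides, fell 19.7-fold (368 and 303 to 17.6 and 16.3, log2 change -4.30).

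Genes listed for defence had no common direction. ECS1 showed the largest named fall of all, from 1936 and 2082 in swn-7 to 32.2 and 21.7 in the double mutant (75.9-fold, log2 change -6.25, SE 0.22, limma adjusted p = 2.06e-06). The thionin genes, which encode small antimicrobial peptides, split. THI2.2 fell from 338 and 356 to 8.38 and 9.45, at least 34.7-fold, and THI2.1 rose from 6.23 and 5.09 to 40.4 and 62.3, at least 5.02-fold (log2 change 2.33, SE 0.23, limma adjusted p = 1.74e-04). PDF1.2b, a jasmonate-responsive defensin, rose (log2 change 1.74, SE 0.51, limma adjusted p = 0.0259), while PDF1.2 had a change of -0.62 (adjusted p = 0.105). BCAT4, of methionine-derived glucosinolate synthesis, fell 2.64-fold. Of 6 measured genes of 17, 2 rose, 3 fell and 1 did not pass, where 24.8% of all probe sets were higher and 20.6% lower. The number of rises is near that background, and THI2.1 entered the test only through the double mutant.

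Leaf and stomatal genes are described singly, since few were measured. Of 5 measured genes of 15, 3 fell, 1 rose and 1 did not pass, where 20.6% of all probe sets were lower and 24.8% higher. The rise, MUTE, entered the test only through the double mutant, so the counts are read as no result on the group. The 3 bHLH factors that act in turn in the stomatal lineage gave 3 outcomes. SPCH, which starts the lineage, differed by -0.55 on the log2 scale (SE 0.24, limma adjusted p = 0.0975). MUTE, which ends the stem-cell-like divisions, rose from 3.01 and 3.53 to 35.5 and 34.03, at least 3.48-fold (log2 change 1.80, SE 0.14, limma adjusted p = 5.72e-05). FMA (FAMA), which acts last, in guard cells, fell 2.83-fold from 38.1 and 51.9 to 18.3 and 13.4 (log2 change -1.502, SE 0.28, limma adjusted p = 0.00368). The MUTE signals exceeded and the FMA signals lay under those of all 6 other arrays. YAB3, a leaf polarity gene, fell 1.96-fold (limma adjusted p = 0.0117), a call lost without the first double mutant array (0.0726) or the second swn-7 array (0.0613). The summed signal of the 5 genes was 979 to 1086 in swn-7, 916 to 1279 in wild type and clf-28, and 141 to 148 in the double mutant. Most of the swn-7 sum was SWEET11 alone, at 923 and 798 in swn-7 and 29.2 and 29.4 in the double mutant. The drop in the sum therefore describes mainly that gene, not the group.

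Among regulators of flowering and chromatin, few listed genes were measured. AGL24, a MADS-box promoter of flowering, rose 6.51-fold, from 20.4 and 18.6 in swn-7 to 146 and 110 (log2 change 2.70, SE 0.24, limma adjusted p = 1.19e-04). AGL19, another flowering promoter, stayed near the floor in all 4 arrays (5.39 and 9.70 against 12.4 and 5.94), with a log2 change of 0.16 (limma adjusted p = 0.465). Of 14 listed genes 3 are named on the array, and FD lay under the floor on all 8 arrays, at up to 6.93. ULT1, a trithorax-type antagonist of Polycomb silencing, was the only gene of 18 in the PRC2 list named on the array. Its signal was 64.1 and 69.0 in swn-7 and 212 and 239 in the double mutant (3.39-fold higher, SE 0.36 on the log2 scale, limma adjusted p = 0.00563), and the call was lost without either double mutant array (0.0668 and 0.0750). The 2 wild-type arrays of ULT1 differed widely, at 164 and 71.2. Of the list of KNOX, meristem and boundary genes CLV3 alone is named on the array, under the floor on all 8 arrays at up to 1.07. The floral MADS-box, storage lipid synthesis and cell cycle lists were not analysed here.

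Markers of other tissues gave little. EXPA7, a root hair expansin and the only one of 14 root markers named on the array, was at 12.1 and 28.1 in swn-7 and under the floor in both double mutant arrays, at 0.940 and 4.48. Its log2 change of -0.88 did not pass (SE 0.39, limma adjusted p = 0.104) but passed with a floor of 5 (-1.88, 0.00839), with a constant of 16 added to the signal (0.0116) and without the first swn-7 array (-1.49, 0.0144). EMS1, the only one of 10 anther markers tested, had a log2 change of -0.31 (limma adjusted p = 0.274), with signals of 11.7 to 13.8 in swn-7 and 10.1 to 10.4 in the double mutant. The anther markers SPL and AMS lay under the floor on all 8 arrays, at up to 8.75 and 8.83. DFR, of anthocyanin synthesis and the only one of 12 flavonoid genes tested, had a change of 0.34 (limma adjusted p = 0.328). The reference transcripts PEX4 and GAPC2 had log2 changes of -0.41 (limma adjusted p = 0.0628) and 0.07 (0.789), and PEX4 passed once arrays were scaled to equal medians (-0.54, 0.0357), under which GAPC2 turned to -0.055. BAN, the other flavonoid gene named on the array, lay under the floor on all 8, at up to 1.04. Across the 22 lists, 57 of 328 entries were named on the array and 49 were tested.

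**Figure D2:**
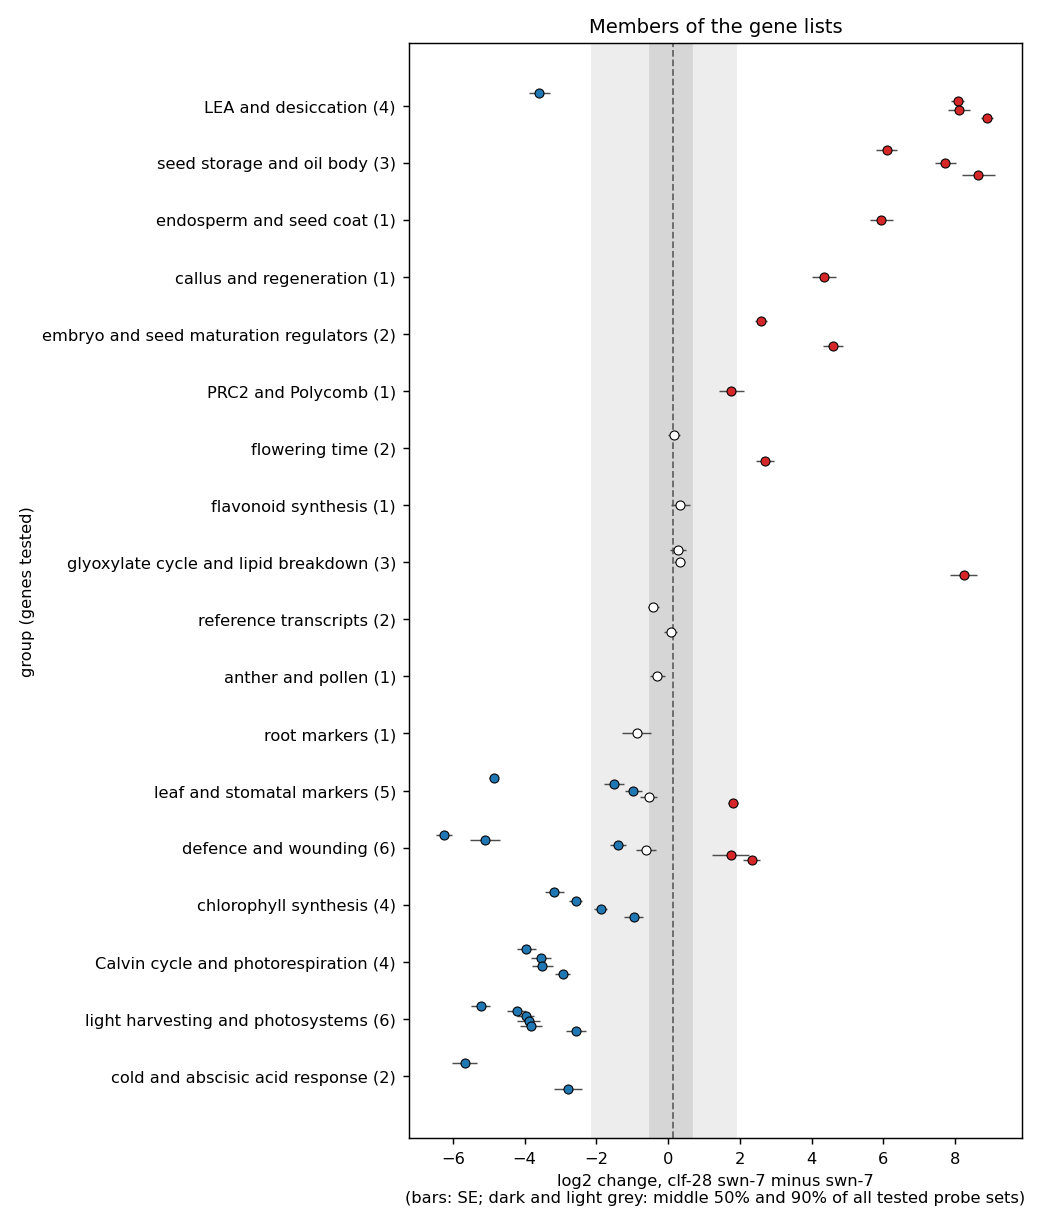
Log2 change in clf-28 swn-7 minus swn-7 with limma SE (bars) for each measured member of the gene lists, red where higher, blue where lower and white where the test was not passed, over grey bands for the middle 50% and 90% of all tested probe sets. All 3 storage and oil body genes lie above 6 and all 6 light harvesting genes lie below -2.

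Families defined by a shared symbol, picked after their values were seen, are set against the shares of 24.8% higher and 20.6% lower over all probe sets. Of 7 GH9 endoglucanases, 5 fell and 1 rose, with a median log2 change of -1.20. GH9B13 fell 6.32-fold (138 and 120 to 24.0 and 17.3), GH9C2 3.81-fold and GH9B8 at least 4.33-fold, whereas GH9A3 rose at least 3.47-fold. Of 8 alpha-expansins 4 fell and 1 rose. The riser was EXPA20, which went from 19.1 and 24.1 to 672 and 382 (23.7-fold, log2 change 4.56, SE 0.31, limma adjusted p = 3.44e-05) and so moved opposite to EXPA8. The calls of EXPA16 (log2 change -2.44) and EXPA18 (-1.20) were each lost in 3 of the 8 omissions of 1 array, those of either double mutant array or of the second swn-7 array. Without the filter EXPA18 also missed the threshold (limma adjusted p = 0.0580), and under a floor of 20 its log2 change was -0.41 (0.253). Of 17 TBL genes 5 fell, among them TBL25 (5.18-fold), and 12 did not pass, with log2 changes of up to 0.80.

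The sugar transporter and glycosyltransferase families each had members called in both directions. Of 11 SWEET genes 4 rose and 4 fell, but SWEET3, SWEET6 and SWEET7, among the rises, entered the test only through the double mutant. The count of rises is therefore read as no result on the family. SWEET2, a vacuolar sugar transporter, fell at least 9.60-fold (86.6 and 119 to 9.36 and 11.2) and SWEET17, a vacuolar fructose transporter, 3.73-fold, whereas SWEET1, a glucose transporter, rose 3.46-fold (63.9 and 79.7 to 243 and 251). Of 38 UDP-glycosyltransferases 11 rose and 6 fell, where 24.8% of all probe sets were higher and 20.6% lower. The median log2 change was 0.12, close to that of all probe sets. Both counts are near that background and are read as no result on the family. UGT71B8, among the rises, entered the test only through the double mutant. UGT73B4 rose 17.0-fold (17.8 and 18.2 to 370 and 253), UGT76E12 at least 17.3-fold (0.333 and 5.23 to 132 and 226) and UGT87A2 4.22-fold, and UGT88A1 fell 3.11-fold. Of 10 tau glutathione transferases 4 fell, led by GSTU18 (8.01-fold, 171 and 131 to 15.6 and 22.4), with GSTU25 falling 2.62-fold. Of 13 beta-glucosidases 4 rose and 2 fell, BGLU45 rising 10.6-fold from 11.9 and 13.5 to 92.3 and 196. The rises of BGLU19 and BGLU29 entered the test only through the double mutant, so this count is read as no result on the family. Of 12 ubiquitin-specific proteases 6 rose, by small steps (median over all 12 of 0.52). Their largest, UBP25 (log2 change 1.64), was not called without the first swn-7 or the first double mutant array.

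**Figure D3:**
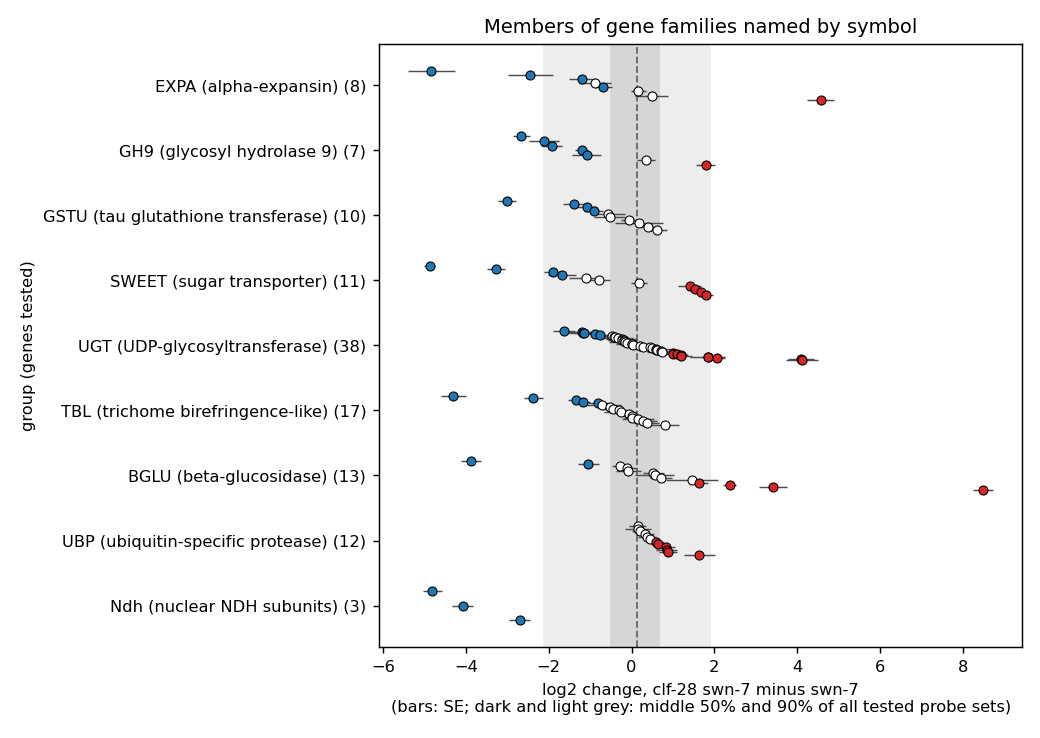
Log2 change in clf-28 swn-7 minus swn-7 with limma SE (bars) for each measured member of 9 families, coloured and shaded as in the plot of the gene lists. The 3 nuclear NDH subunits all lie below -2, and the BGLU and expansin families have members far out on both sides. The SWEET family runs from -4.87 to 1.79.

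Plastid-encoded transcripts did not follow the nuclear photosynthesis genes in a uniform way, and their values hung on 1 array. Of 69 plastid-encoded genes tested, 4 fell and 0 rose by limma, where 20.6% of all probe sets were lower and 24.8% higher, and 5 were lower and 4 higher at an unadjusted p under 0.05. The median log2 change was 0.89. On swn-7 replicate 2 all 69 read lower than on replicate 1, 61 of them by at least 2-fold (median gap 2.60 on the log2 scale), while 296 other probe sets differed 2-fold between the 2 arrays. In wild type and clf-28, replicate 2 was also the lower array for most plastid genes, mostly by smaller gaps. For atpA, replicates 1 and 2 read 4013 and 3494 in wild type, 2706 and 1089 in clf-28, and 3536 and 119 in swn-7. Against swn-7 replicate 1 alone the median change of the double mutant was -0.49, and against replicate 2 alone 2.45. Without replicate 2 the limma fit called 0 higher and 11 lower, and without replicate 1 it called 53 higher and 1 lower. Against wild type the median change was -0.64. The direction for the plastid transcripts as a whole was therefore not settled by these arrays.

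The 4 plastid calls were psbE, psbF, psbL and psbJ, small subunits of photosystem II whose genes lie side by side on the plastid genome and form 1 transcription unit. The first pair encodes cytochrome b559. Signals of psbE were 1948 and 1291 in swn-7 and 554 and 712 in the double mutant (2.53-fold lower, log2 change -1.34, SE 0.25, limma adjusted p = 0.00421). The changes were -0.91 for psbF (SE 0.24, limma adjusted p = 0.0178), -0.81 for psbL (SE 0.28, 0.0450) and -0.65 for psbJ (SE 0.22, 0.0477). All 4 were lower in the double mutant than in either swn-7 array. The psbE call held in 7 of the 8 omissions of 1 array, failing without the first double mutant array, the psbF call in 5, and the psbL and psbJ calls in 3 each. The psbF, psbL and psbJ calls were also lost without the filter (limma adjusted p = 0.0574, 0.126 and 0.106) and with only the compared arrays fitted (0.0656, 0.105 and 0.108). Those of psbL and psbJ were further lost with quantile normalization (0.0689 and 0.0529) and without the eBayes trend (0.0555 and 0.0536), and that of psbJ with a floor of 5 (0.0509).

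**Figure D4:**
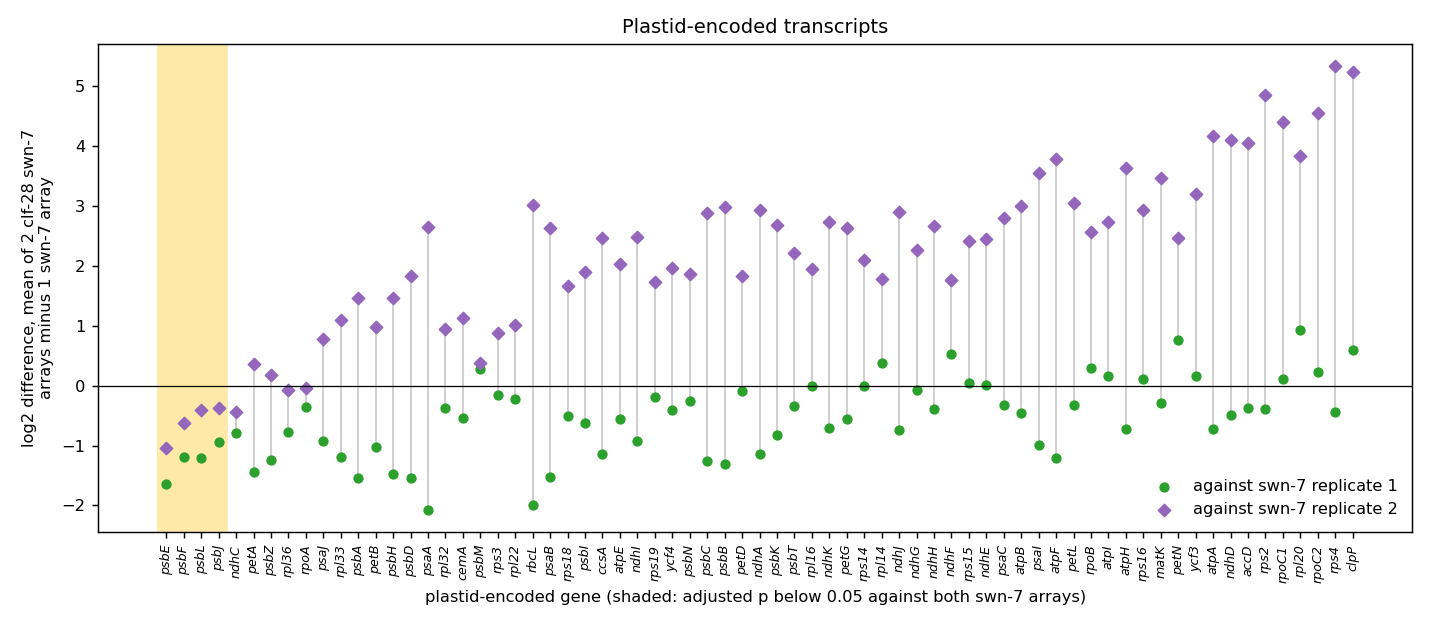
Log2 difference of the mean of the 2 clf-28 swn-7 arrays from swn-7 replicate 1 (green circles) and from swn-7 replicate 2 (purple diamonds) for 69 plastid-encoded genes, ordered by their log2 change. The shaded psbE, psbF, psbL and psbJ lie below 0 against both arrays, and for most other genes the 2 references lie on opposite sides of 0.

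The same loss of CLF with SWN present, clf-28 against wild type at equal age, gave far fewer calls. Of all replicate pairs the wild-type arrays agreed least, with r = 0.958 and 1059 probe sets at least 2-fold apart. The clf-28 arrays agreed most, with r = 0.986 and 161. At the same threshold 21 of 17332 probe sets differed (0.121%), 18 higher (0.104%) and 3 lower (0.0173%), and 2163 had an unadjusted p under 0.05. That count ranged from 2 (without clf-28 replicate 2) to 584 (without wild-type replicate 2), and was 7 or 8 without either swn-7 array or the first clf-28 array. The middle 50% of log2 changes spanned -0.21 to 0.22 in clf-28 and -0.50 to 0.65 in the double mutant against swn-7. The difference between the 2 effects of losing CLF, which rests on all 8 arrays with none shared between its sides, was itself tested. Only the double mutant was grown for 12 days, so age enters this difference and cannot be told apart from genotype in it. The test of the difference passed for 5378 probe sets (31%), 2664 positive (15.4%) and 2714 negative (15.7%). The total was 3278 and 3395 without the second and first clf-28 arrays and 3556 without the first double mutant array. Of the 7869 probe sets that differed between the double mutant and swn-7, 5029 (63.9%) also differed, in the same direction, from the effect in clf-28. These make up 93.5% of the 5378. The change against swn-7 enters the difference, and most changes in clf-28 were small. This overlap is therefore largely fixed in advance and supports nothing by itself. For 2839 that differed from swn-7, the difference between effects did not pass, which does not show that the effects were equal. Across probe sets the 2 effects correlated with r = -0.04, a description only, since genes are not independent.

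Probe sets called in clf-28 did not all respond in the swn-7 background. Of the 18 higher in clf-28, 8 were also higher in the double mutant than in swn-7, 2 were lower and 8 were not called. Against them stand the shares over all probe sets, 24.8% higher and 20.6% lower. These 18 were chosen on the clf-28 and wild-type arrays, so the differences between effects given for them are descriptions. Of the 21 calls, 7 match a named gene, and all 7 are given here.

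SWEET10, a sugar transporter, was high in clf-28 (158 and 143) and at or near the floor in wild type (6.15 and 2.59), swn-7 (7.14 and 8.37) and the double mutant (2.27 and 12.8). Its log2 change was 3.91 in clf-28 and 0.18 in the double mutant against swn-7 (SE 0.19, limma adjusted p = 0.478). The genes AT3G19550 and AT5G39520, named only by locus, were also highest in clf-28. AT3G19550 read 111 and 130 in clf-28, 12.2 and 13.7 in wild type, 10.8 and 10.6 in swn-7, and 16.3 and 12.4 in the double mutant. Its log2 changes were 3.22 in clf-28 and 0.41 in the double mutant (SE 0.21, limma adjusted p = 0.149), the latter passing without the second double mutant array (0.0432). AT5G39520 read 158 and 273 in clf-28, 19.9 and 26.6 in wild type, 8.41 and 15.8 in swn-7, and 11.8 and 8.72 in the double mutant, with log2 changes of 3.18 and -0.21 (SE 0.34, limma adjusted p = 0.650). These 3 genes were high on the clf-28 arrays and near the floor on the double mutant arrays, although both genotypes lack CLF.

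Other clf-28 genes rose in both backgrounds. AT1G09500 read 160 and 166 in clf-28, 5.00 and 8.79 in swn-7, and 142 and 115 in the double mutant, at least 12.8-fold above swn-7 (log2 change 3.68, SE 0.21, limma adjusted p = 1.51e-05). AT1G03710 rose at least 9.12-fold in the double mutant (1.04 and 0.549 to 90.7 and 91.7), and AT5G39220 at least 9.80-fold (10.4 and 7.05 to 113 and 87.7). Their log2 changes in clf-28 were 3.42, 2.49 and 2.74, and those in the double mutant 3.68, 3.19 and 3.29. For these 3 genes the test of the difference between effects did not pass (differences of 0.26, 0.70 and 0.55, limma adjusted p = 0.542, 0.0693 and 0.277). Of the 3 probe sets lower in clf-28, 2 were also lower in the double mutant and 1 was higher. Of those lower in both, AT4G01390 is the one with a gene: it fell at least 5.96-fold (61.0 and 60.8 to 10.4 and 2.74, log2 change -2.58, SE 0.23, limma adjusted p = 1.20e-04), with a change of -2.02 in clf-28.

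**Figure D5:**
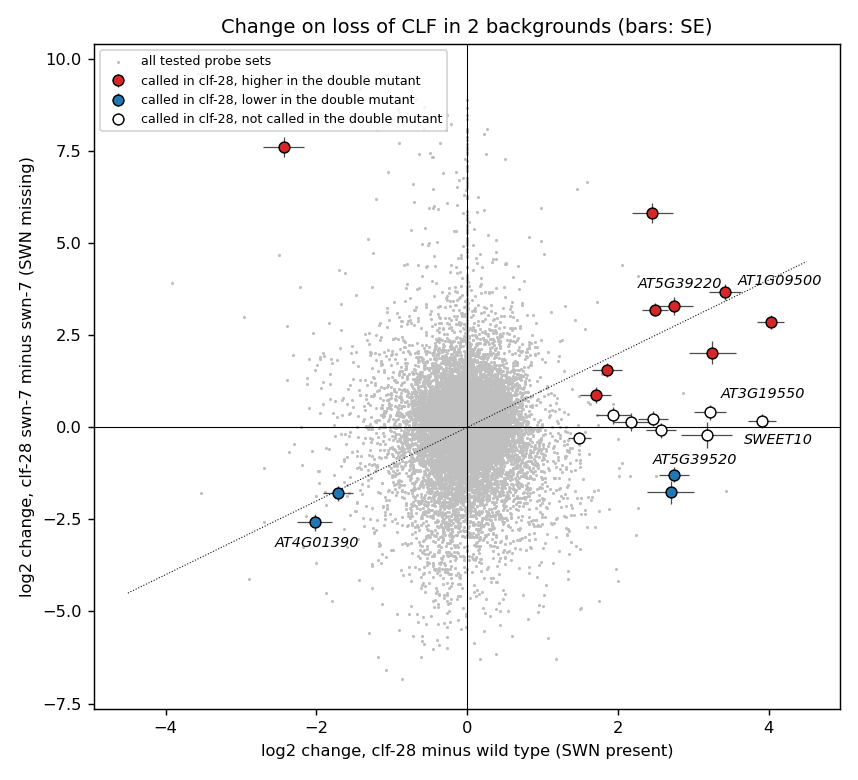
Log2 change on loss of CLF in the swn-7 background (vertical axis, clf-28 swn-7 minus swn-7) against that in the wild-type background (horizontal axis, clf-28 minus wild type) for all 17332 tested probe sets (grey), with the 21 called in clf-28 ringed and given SE bars. The dotted line marks equal change, and SWEET10, AT3G19550 and AT5G39520 lie near 0 on the vertical axis and above 3 on the horizontal axis.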

How the data were processed

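Per the submitters' processing notes MAS5 and GCOS made the deposited values, which are array intensities, 1 linear signal per probe set; no versions are given in the sources used here. The 64 control probe sets were left out, signals were floored at 10 and log2 was taken. limma 3.58.1 in R 4.3.3 (lmFit, eBayes with trend) fitted 1 mean per genotype to 8 arrays, with 4 residual and 3.43 prior degrees of freedom. P-values are two-sided and Benjamini-Hochberg adjusted over 17332 probe sets, and errors are limma's SE. The fit was tested on simulated data. The number of arrays limits the precision.

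Gene names came from the platform annotation (1 symbol for 13513 probe sets, several for 503, none listed for 8730), and RefSeq tables matched 9492 of 9532 tested. Probe sets of unlisted genes, and promoter and protein sequences, were not used here. Named genes were the 12 largest rises and falls that passed without overlap and had a RefSeq symbol, the 4 members of each list with the smallest adjusted p, and genes picked after their values were seen (called in clf-28, plastid calls, families). Comparison, lists and settings were chosen with earlier results of these data known. The replicate numbers were not used as pairs: correlations of replicate differences between genotypes ran from -0.08 to 0.22, the highest for clf-28 and swn-7. Alternatives were other floors, filters and scalings, eBayes variants, a replicate block, only the compared arrays and leaving out each array.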

Additional observations from a re-analysis of the deposited data

Results flagged for a closer look

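For 66 of the named genes the effect of losing CLF in the swn-7 background differed from that in the wild-type background, by limma's test of the difference itself. The values are differences on the log2 scale (double mutant minus swn-7, less clf-28 minus wild type). Most of these genes were picked by their change against swn-7, which enters the difference, so their number is no evidence. Over all probe sets 31% passed. Where a genotype lies at the floor the size of the difference depends on it. Only the double mutant was grown for 12 days, so age cannot be told apart from genotype in these differences. No explanation was tested.

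Among seed and embryo genes the differences were 8.89 for LEA18, 9.57 for PAP85, 8.76 for BGLU19, 8.46 for ICL, 7.85 for LEA4-5 and 8.07 for AtLEA4-1. They were 7.75 for M17, 8.62 for OLEO3, 7.62 for LEA, 7.18 for LCR67, 7.41 for ATOEP16-2 and 6.35 for BETA-VPE. Among genes listed as embryo, seed coat and callus markers EEL had 4.49, BBM 2.59, DELTA-VPE 4.97 and LBD16 4.497.

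Among photosynthesis and plastid genes they were -5.11 for LHCB4.2, -3.74 for LHCB4.1, -3.63 for PSAN, -4.08 for PSBY, -3.70 for PRK, -2.39 for HPR, -3.19 for SBPASE and -3.19 for RCA. They were -2.76 for CHLM, -2.31 for PORB, -1.95 for HEMB1, -5.15 for LrgB, -4.56 for NdhL, -3.46 for NdhN, -2.36 for NdhS and -1.14 for psbE.

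Among cold, defence and leaf genes ECS1 had -5.06, COR15B -4.95, COR47 -3.69, THI2.2 -5.41, THI2.1 2.45, BCAT4 -0.99, MUTE 1.80 and YAB3 -1.10. For wall and auxin genes the values were -5.79 for EXPA8, -3.76 for EXPA16, -2.07 for EXPA18, 4.23 for EXPA20, -3.20 for GH9B13, -2.04 for GH9C2, 2.43 for GH9A3, -4.08 for TBL45, -2.52 for TBL25 and -5.31 for IAA29. For sugar transport and conjugation they were -4.43 for SWEET11, -4.10 for SWEET2, -1.39 for SWEET17, -3.74 for SWEET10, 3.49 for UGT73B4, 1.84 for UGT76E12, 1.35 for UGT87A2, -1.55 for UGT88A1, -2.32 for GSTU18, -1.92 for GSTU25 and 1.69 for BGLU45. Regulators gave 3.28 for ULT1, 2.01 for AGL24 and 2.104 for UBP25, and the loci AT3G19550 and AT5G39520, chosen for their rise in clf-28, gave -2.81 and -3.38.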

How the results depend on the processing

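Of 86 named genes, 4 turned sign in an alternative, and AGL19 came to 0 in an omission. With 1 array left out AIM1 ranged from -0.0085 to 0.57 and AT5G39520 from -0.54 to 0.12. SWEET10 turned to -0.051 with a constant of 16 added, and GAPC2 to -0.15 with quantile normalization and -0.055 with arrays scaled to equal medians. Of the 75 called, 10 lost a call in some alternative. Leaving out each array gave 5347 to 8391 calls against swn-7, 2793 to 4588 higher and 2554 to 3805 lower. It gave 3278 to 5681 differences between effects, 1523 to 2911 positive and 1755 to 2770 negative. For clf-28 against wild type it gave 2 to 584 calls, and a constant added gave 41. The replicate number as a block gave 7817 calls against swn-7. Replicate differences correlated weakly between genotypes, with r up to 0.22, for clf-28 and swn-7, and the cause of such changes was not tested. The seed storage median was 7.84 with a floor of 5, 6.72 with a floor of 20, 6.40 with the constant, 7.65 with quantile normalization and 7.70 to 7.75 in the omissions. The LEA median was 8.97, 7.09, 7.04 and 7.97 in those settings, 8.02 with equal medians, and 8.04 to 8.14 in the omissions. The defence median was -0.82 with the constant and -1.22 to -0.80 in the omissions, and that of leaf genes -1.23 to -0.71. Omission ranges were -4.30 to -3.64 for light harvesting, -3.88 to -3.16 for the Calvin cycle, -2.43 to -2.04 for chlorophyll synthesis and 0.29 to 0.57 for lipid breakdown. Genes under the floor of 10 have no measured level in that genotype.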
